A study of Mus musculus with 15 samples.

Results

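The 44 genes described here encode the extracellular matrix and scar of injured tissue: collagens, laminins and nidogens, proteoglycans, matrix glycoproteins, and the enzymes and chaperone that process collagen. They are a set list of gene symbols, drawn up with earlier results of these data known, and no measured value enters the rule. All 44 were found among the 33321 genes of the count table, and all 44 were among the 16795 genes with enough counts to be tested. Bulk RNA-seq was done on mouse corpus callosum, the large commissure of myelinated axons between the cerebral hemispheres, in 15 libraries of 5 groups with 3 libraries each. The sham group was callosum of sham-operated mice at the place injected with saline. The LPC lesion was the site injected with lysophosphatidylcholine, a detergent-like lipid that strips myelin, and the LPC contralateral group was the callosum on the side away from it. The L-NIO lesion was the site injected with L-NIO, which blocks endothelial nitric oxide synthase and is a model of white matter stroke, and the L-NIO contralateral group was the side away from that. Injured and contralateral tissue was collected 4 days after injection, and no separate day is given for the sham tissue. No label gives a strain, sex, age or genotype, or says whether replicate libraries stem from different animals. The p-values therefore measure the spread between these libraries, which may be technical. Each of these samples is a piece of tissue with all its cell types, in which more cells of a type and more RNA per cell cannot be told apart.

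Matrix proteins form 2 main structures. Fibrillar collagens are secreted as procollagen, assembled into fibres and cross-linked by lysyl oxidases, while laminins, nidogens, collagen IV and perlecan form the basement membrane sheets around blood vessels and at the brain surface. Healthy white matter holds little fibrillar collagen outside vessels and meninges. Its interstitial matrix is rich in hyaluronan-binding proteoglycans such as neurocan and brevican. After injury to the central nervous system, fibroblasts and pericytes can lay down a fibrotic scar, and reactive astrocytes are known to raise chondroitin sulphate proteoglycans.

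Totals ran from 14896445 to 20916606 counts per library, and the mitochondrially encoded share ran from 8.74% to 15.9%. The 44 genes together took between 0.116% and 0.256% of the counts. The leading principal component of all genes held 31.6% of the variance. It placed LPC lesion replicate 3 at -11.3, among the sham and contralateral libraries (-28.0 to 2.56), while LPC lesion replicates 1 and 2 lay at 77.2 and 50.6. LPC contralateral replicate 2 stood apart on the next component (-62.9). Summed CPM (counts scaled to the library total after TMM normalization, as for every CPM below) of 6 mature oligodendrocyte markers ran from 14900 to 29100 across the libraries. With no other tissue to compare, this sum cannot show that the pieces were callosum alone. Summed CPM of 4 neuron markers was 3580 to 4670 in sham, 2650 to 3450 in the LPC lesion and 3350 to 4360 in the other groups. Choroid plexus markers (5 genes) ran from 33.0 to 1410 summed CPM, so the pieces of tissue differed in how much plexus RNA they held. Results that rest on LPC lesion replicate 3 are given with and without it.

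Levels per gene length (the authors' FPKM, fragments scaled by gene length and library size) set the background in sham tissue. Brevican (Bcan) was highest among the 44 genes at 58.7 ± 3.70 FPKM (mean ± SD, n = 3), followed by Sparc at 33.9 ± 1.35. Col6a1 at 23.4 ± 5.53 and neurocan (Ncan) at 23.3 ± 2.08 came next and did not differ beyond their spread. The collagen IV chains of the vessel wall lay lower, with Col4a2 at 9.64 ± 0.971 and Col4a1 at 6.05 ± 0.352. Of the fibrillar collagens, Col1a1 at 0.933 ± 0.479 and Col3a1 at 0.450 ± 0.237 FPKM were lower than both. Col1a2 and Col5a2 were also low, at 0.784 ± 0.364 and 0.671 ± 0.175. Col5a1 was not, and its 7.34 ± 1.24 FPKM lay between the collagen IV chains by mean. Lox, the founding lysyl oxidase, was lowest at 0.156 ± 0.0717, level with Loxl2 at 0.163 ± 0.0917. In both lesions the order of the means changed at the top. Sparc reached 155 ± 97.2 FPKM in the LPC lesion and passed Bcan at 71.5 ± 1.48, although the 3 Sparc values were spread widely. In LPC lesion replicate 3 Sparc stayed below Bcan, at 58.2 against 69.9 FPKM. In the L-NIO lesion Sparc stood at 83.9 ± 13.9 and Bcan at 64.4 ± 12.9 FPKM, with Sparc above Bcan in every library.

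**Figure D1:**
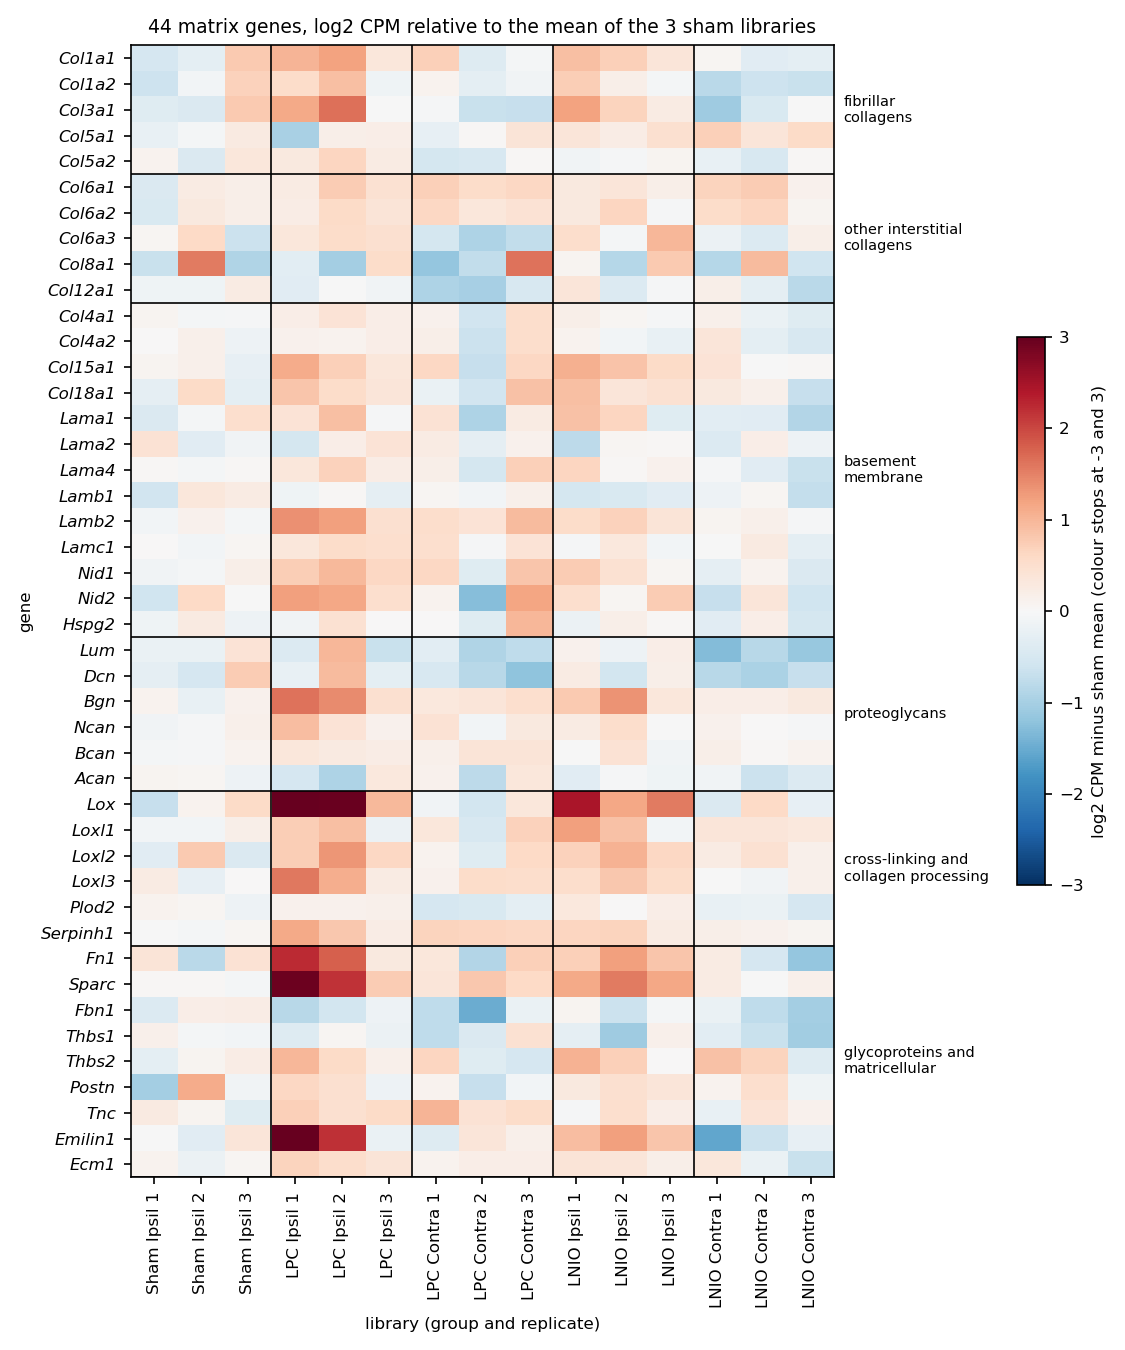
Colour shows log2 CPM of each of the 44 genes in each of the 15 libraries, minus the mean of the 3 sham libraries, with genes in rows by class. Lox, Sparc and Emilin1 are darkest in LPC lesion replicates 1 and 2, replicate 3 is paler, and the collagen IV genes stay near 0 in most libraries.

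The first comparison asked which matrix genes differed between the LPC lesion and the saline site. Here 7 of the 44 genes rose and 0 fell (edgeR quasi-likelihood test, adjusted p under 0.05), against 4.19% of all tested genes called higher. The risers were Sparc, Lox, Emilin1, Bgn, Lamb2, Loxl3 and Serpinh1. None is a collagen chain. Of the 44 log2 fold changes 37 were positive, with a median of 0.45 against 0.01 over all tested genes, and 18 genes (40.9%) had an unadjusted p under 0.05, against 20.2% of all genes. DESeq2 also called 7 of the 44 (6.45% of all genes higher). In 15 genes all 3 lesion libraries lay above all 3 sham libraries, and in 0 all lay below; over all tested genes these shares were 14.0% and 13.5%. By class, the risers were 3 of 6 cross-linking and collagen processing genes, 2 of 9 glycoproteins and matricellular proteins, 1 of 6 proteoglycans and 1 of 13 basement membrane genes. No gene was called among the 5 fibrillar or the 5 other interstitial collagens. Without LPC lesion replicate 3, 9 genes were called (8.01% of all genes higher), with Fn1 and Ncan added. Leaving out LPC lesion replicate 1 or 2, or any 1 sham library, ended every call among the 44 and left at most 1 gene called in the whole table. A fit of only the sham and LPC lesion libraries also called 0 of the 44 (0% of all genes), with adjusted p of 0.121 to 0.163 for the 7 genes.

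Enzymes and chaperones that act on collagen held the largest share of risers. Lox, which oxidises lysines so that collagen and elastin fibres cross-link, was measured in sham replicates 1, 2 and 3 at 0.418, 0.811 and 1.16 CPM. The LPC lesion gave 9.30, 6.57 and 1.57 CPM in the same order, which is kept throughout, and all 3 lay above sham, replicate 3 only narrowly. L-NIO lesion values were 4.57, 1.78 and 2.38 CPM. Both contralateral groups stayed at sham level, with 0.678, 0.467 and 0.973 CPM on the LPC side and 0.518, 1.18 and 0.610 on the L-NIO side. The Lox log2 fold change between LPC lesion and sham was 2.85 ± 0.60 (SE, adjusted p = 0.0243), a 7.19-fold difference that rests on few reads: the sham libraries held 7, 12 and 23 counts. Loxl3, a related lysyl oxidase, stood at 5.20, 3.65 and 4.38 CPM in sham and at 13.3, 9.45 and 5.20 in the LPC lesion. Here replicate 3 read no higher than the highest sham library and the groups overlapped. The fitted change was 1.08 ± 0.28 (SE, adjusted p = 0.0374), and the call was lost with a term for replicate number in the fit (adjusted p = 0.0615). In the L-NIO lesion Loxl3 read 6.35, 7.67 and 6.45 CPM, and the contralateral groups read 4.75, 6.48 and 6.35 on the LPC side and 4.32, 4.07 and 4.88 on the L-NIO side.

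Serpinh1 encodes HSP47, the chaperone of the endoplasmic reticulum that folding procollagen needs. It rose from 11.2, 10.9 and 11.7 CPM in sham to 24.99, 19.8 and 13.2 in the LPC lesion, with no overlap. The log2 fold change was 0.78 ± 0.19 (SE, adjusted p = 0.0292). The LPC contralateral side gave 17.9, 17.7 and 17.2 CPM, also above every sham library and inside the range of the lesion. In the L-NIO model the lesion gave 17.6, 18.02 and 13.4 and the contralateral side 12.8, 12.3 and 11.9 CPM. The remaining enzymes of this class were not called. Their log2 fold changes were 0.91 for Loxl2, 0.58 for Loxl1 and 0.12 for Plod2, the lysyl hydroxylase of collagen telopeptides. Plod2 nevertheless lay a little higher in all 3 LPC lesion libraries (12.9, 12.9 and 13.1 CPM) than in sham (12.8, 12.4 and 10.6 CPM). The class median was 0.85 with 6 of 6 positive, and it stayed between 0.64 and 1.02 under all other settings, among which were the fits that each left out 1 library.

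Matricellular and adhesive glycoproteins followed. Sparc, a collagen-binding glycoprotein that brain endothelium, astrocytes and microglia are known to make, had 139.7, 139 and 131 CPM in the 3 sham libraries. The LPC lesion had 1043, 616 and 230.1 CPM, above sham in every library, with a 4.61-fold mean difference (log2 fold change 2.20 ± 0.37, adjusted p = 0.0243). Replicate 3 was the lowest of the 3 by a wide margin and lay inside the range of the LPC contralateral side, 177, 240.4 and 208 CPM. L-NIO lesion libraries were more even at 300.1, 400.4 and 304 CPM, and all lay above the L-NIO contralateral values of 162, 136 and 151 CPM. Without LPC lesion replicate 3 the log2 fold change of Sparc against sham was 2.60 ± 0.21 (SE, adjusted p = 3.08e-06). With replicate 1 or 2 left out instead, Sparc was not called.

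Emilin1, a glycoprotein of elastic fibres, showed the same 2 libraries high. Sham read 1.38, 1.08 and 1.81 CPM and the LPC lesion 12.2, 6.71 and 1.21, so that replicate 3 lay inside the sham range. The fitted log2 fold change was 2.23 ± 0.59 (SE, adjusted p = 0.0421). The call was also lost without a low count filter (adjusted p = 0.0607) and with a term for replicate number in the fit (adjusted p = 0.0802). The other groups read 1.04, 1.81 and 1.56 CPM on the LPC contralateral side, 2.73, 3.39 and 2.58 in the L-NIO lesion and 0.403, 0.851 and 1.16 contralateral to it. Fibronectin (Fn1), the adhesive glycoprotein of provisional matrix, missed the threshold, with a log2 fold change of 1.55 ± 0.53 (SE, adjusted p = 0.118). It read 36.3, 15.9 and 37.4 CPM in sham and 133, 96.2 and 34.04 in the LPC lesion, where replicates 1 and 2 lay far above sham and replicate 3 within it. Without replicate 3 the Fn1 difference was 1.93 ± 0.48 (SE, adjusted p = 0.0245), and without replicate 1 or 2 Fn1 was not called. The L-NIO lesion had 46.1, 65.3 and 49.9 CPM, above every sham library, and the contralateral sides had 35.2, 15.1 and 45.8 (LPC) and 33.2, 19.5 and 12.4 (L-NIO).

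Tenascin C (Tnc), a matricellular protein made by glia in the injured and developing brain, was higher in all 3 LPC lesion libraries (15.8, 13.3 and 14.2 CPM) than in sham (11.4, 10.1 and 7.39 CPM) but missed the threshold, at a log2 fold change of 0.58 ± 0.22 (SE, adjusted p = 0.145). On the LPC contralateral side it was as high, at 19.2, 12.9 and 13.9 CPM. L-NIO tissue gave 9.24, 13.5 and 10.96 CPM in the lesion and 8.12, 12.6 and 10.4 contralateral to it, overlapping sham. Periostin (Postn) and thrombospondin 2 (Thbs2), both tied to fibrosis in other organs, were not called, with log2 fold changes of 0.11 and 0.60. Thbs1 stood at -0.17 and the microfibril protein fibrillin 1 (Fbn1) at -0.53. Ecm1 was higher in all 3 lesion libraries at 0.53 and missed the threshold (edgeR adjusted p = 0.194).

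**Figure D2:**
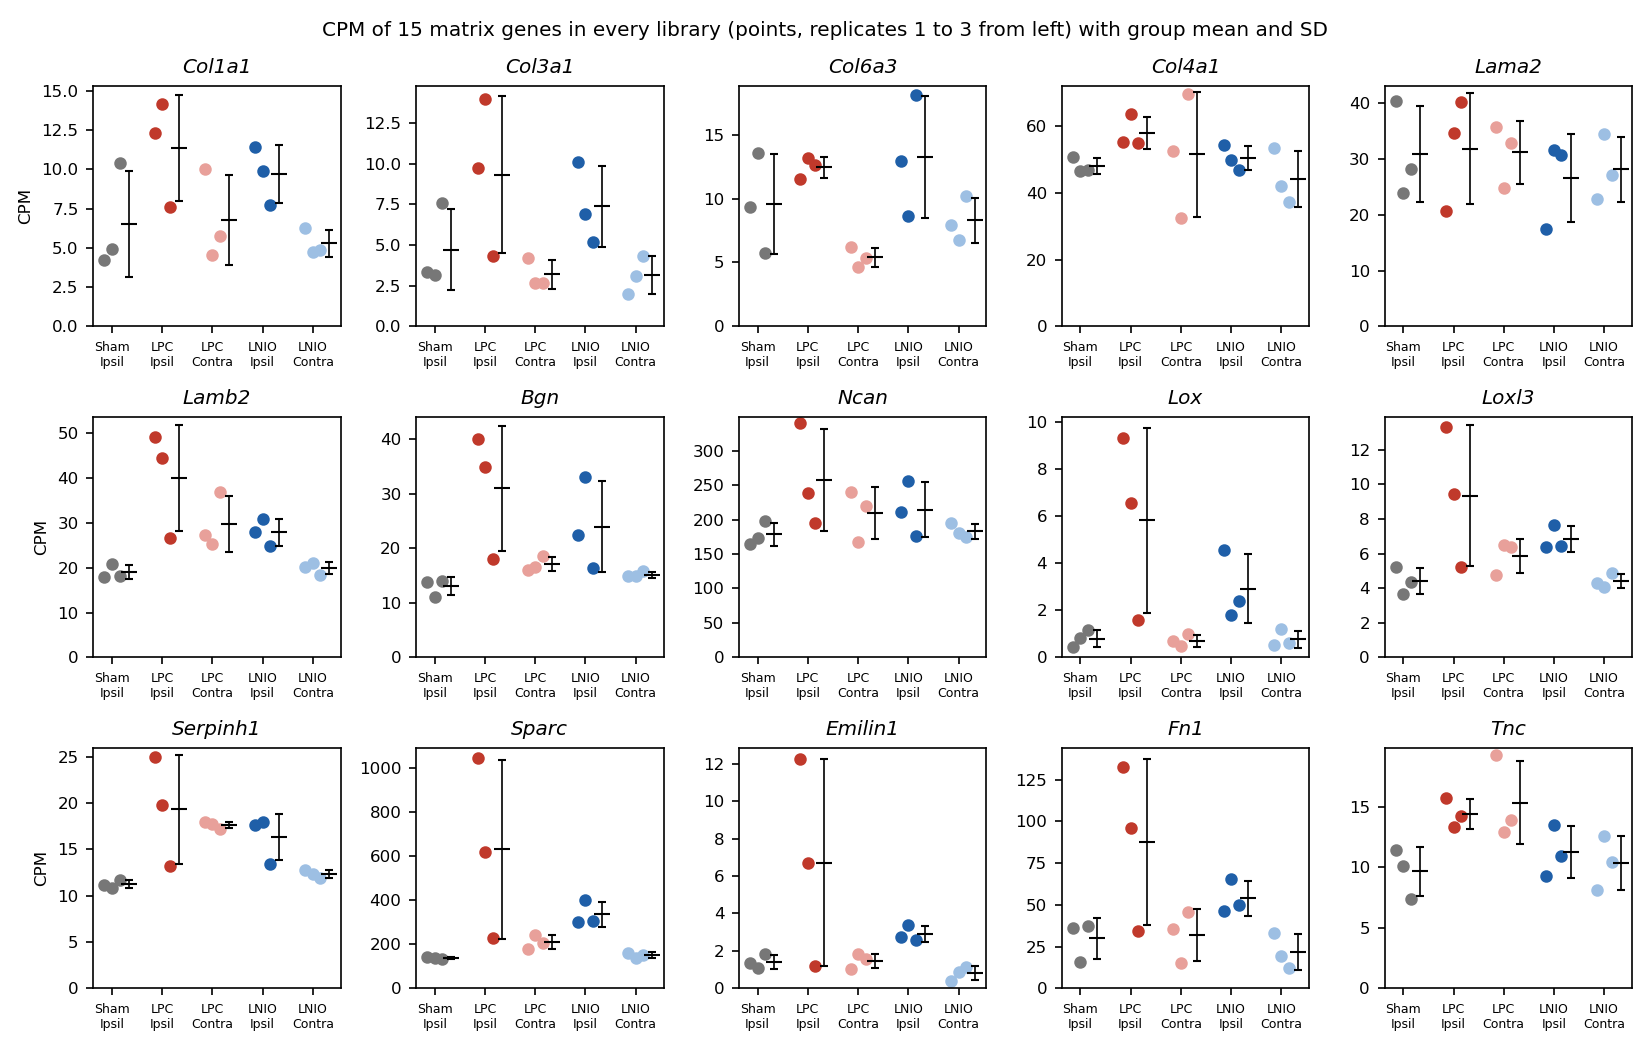
Points give the CPM of 15 genes in each library by group, with the group mean and SD in black, on linear axes from 0. Sparc, Lox, Emilin1, Loxl3 and Fn1 show 2 high LPC lesion libraries with replicate 3 near or inside the sham range, while Col4a1 and Lama2 overlap between most groups.

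Basement membrane genes gave 1 riser of 13. Lamb2 encodes the laminin beta 2 chain of vascular and pial basement membranes. It rose from 17.99, 20.8 and 18.2 CPM in sham to 49.1, 44.4 and 26.5 in the LPC lesion, with no overlap and a log2 fold change of 1.08 ± 0.20 (SE, adjusted p = 0.0243). The LPC contralateral side was also above sham at 27.3, 25.2 and 36.9 CPM. L-NIO lesion values of 28.01, 30.8 and 24.9 CPM lay above both sham and the L-NIO contralateral side, 20.2, 21.04 and 18.4 CPM. The other laminin chains were not called: log2 fold changes were -0.16 for Lamb1, the alternative beta chain, 0.04 for Lama2 and 0.43 for Lama4.

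Lama2, the main laminin alpha chain of the glial side of vessels, read 40.5, 24.00 and 28.3 CPM in sham and 20.8, 34.7 and 40.1 in the LPC lesion. Its values in the L-NIO lesion were 17.5, 31.6 and 30.8 CPM, and the contralateral sides had 35.7, 24.9 and 32.9 (LPC) and 22.9, 34.5 and 27.1 (L-NIO), so all 5 groups overlapped. Col4a1, the core collagen of all basement membranes, was slightly higher in every LPC lesion library (55.4, 63.6 and 54.8 CPM) than in sham (50.8, 46.5 and 46.97 CPM), without passing the test (log2 fold change 0.27 ± 0.21, adjusted p = 0.513). In the other groups it read 52.5, 32.4 and 69.6 CPM (LPC contralateral), 54.3, 49.9 and 46.97 (L-NIO lesion) and 53.5, 41.9 and 37.2 (L-NIO contralateral). Its partner chain Col4a2 stood at 0.14. In the RefSeq table used for promoters (build GRCm38.p6) the 2 genes lie head to head on chromosome 8 with starts at 11312826 and 11312805, so their first 22 bases overlap.

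Nid1 and Nid2, the nidogens that link laminin to collagen IV, had log2 fold changes of 0.78 and 0.95, and Lamc1, the common gamma chain, 0.47. Nid1 and Lamc1 were higher than sham in all 3 lesion libraries, with edgeR adjusted p of 0.105 and 0.117. Col15a1 and Col18a1, the vessel-associated collagens that carry endostatin-type domains, stood at 0.76 and 0.56, and perlecan (Hspg2) at 0.14. Over the 13 genes of this class the median was 0.44 (0.28 without LPC lesion replicate 2), 12 of 13 were positive, and 6 had lesion libraries wholly above sham. Summed CPM of 8 endothelial markers was 183 to 231 in the LPC lesion and 147 to 155 in sham, and that of 9 pericyte and smooth muscle markers 133 to 186 against 114 to 130. On the LPC contralateral side these sums reached higher than in the lesion, at 156 to 280 and 142 to 212. They were 143 to 224 and 114 to 205 in the L-NIO lesion, and 116 to 163 and 116 to 159 contralateral to it. None of these markers was among the 44 genes, and their part in the basement membrane values was not tested.

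Among the 6 proteoglycans 1 was called, biglycan. Bgn, a small leucine-rich proteoglycan that binds collagen and can signal to macrophages once released, rose from 13.9, 11.2 and 14.1 CPM in sham to 40.1, 34.9 and 18.1 in the LPC lesion. The groups did not overlap and the log2 fold change was 1.25 ± 0.26 (SE, adjusted p = 0.0243). It read 16.1, 16.6 and 18.5 CPM on the LPC contralateral side, 22.4, 33.1 and 16.5 in the L-NIO lesion and 14.9, 14.8 and 15.8 contralateral to that, all above sham. Its close relatives decorin (Dcn) and lumican (Lum), typical of fibroblasts, were not called, at 0.16 and 0.16 on the log2 scale.

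The large chondroitin sulphate proteoglycans of brain matrix gave 0 calls. Neurocan (Ncan) read 165, 174 and 197 CPM in sham and 340.0, 238 and 195 in the LPC lesion, where replicate 3 lay inside the sham range (log2 fold change 0.53 ± 0.19, adjusted p = 0.137). Without that library the Ncan difference was 0.69 ± 0.19 (SE, adjusted p = 0.0338), and without LPC lesion replicate 1 or 2 Ncan was not called. Other groups had 240.4, 167 and 219.5 CPM (LPC contralateral), 212, 256 and 176 (L-NIO lesion) and 195, 180.3 and 174 (L-NIO contralateral). Brevican (Bcan) and aggrecan (Acan) were not called, at 0.28 and -0.29. Summed CPM of 5 astrocyte markers was 1790 to 3980 in the LPC lesion and 1260 to 1620 in sham, with replicate 3 again the lowest of the lesion libraries, and its part in the Ncan values was not tested.

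Fibrillar collagens are the substance of a fibrotic scar, and edgeR and DESeq2 called none of the 5 listed in either lesion against sham. Calls of Col3a1 and Col1a2 under some settings of the side comparisons are given below. Col1a1 read 4.25, 4.94 and 10.4 CPM in sham and 12.3, 14.2 and 7.62 in the LPC lesion. Sham replicate 3 lay above LPC lesion replicate 3, so the groups overlapped (log2 fold change 0.79 ± 0.35, adjusted p = 0.224). Col3a1, the collagen of early granulation tissue, gave 3.35, 3.18 and 7.59 CPM in sham and 9.72, 13.9 and 4.29 in the LPC lesion, with the same sham library high (log2 fold change 0.98 ± 0.44, adjusted p = 0.228). L-NIO lesion values were 11.4, 9.90 and 7.74 CPM for Col1a1 and 10.1, 6.90 and 5.16 for Col3a1. LPC contralateral tissue held 10.02, 4.55 and 5.77 CPM of Col1a1 and 4.23, 2.69 and 2.66 of Col3a1. L-NIO contralateral tissue held 6.28, 4.73 and 4.88 and 2.02, 3.12 and 4.33, the lowest group for Col1a1 by mean. Col1a2, Col5a2 and Col5a1 stood at 0.41, 0.38 and -0.12. The median of the 5 genes was 0.41, and it was 0.84 without sham replicate 3 and 0.24 without LPC lesion replicate 2.

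Fibroblast marker sums overlapped between sham and both lesions. The summed CPM of 9 fibroblast markers, none among the 44 genes, was 22.7, 32.00 and 51.3 in sham and 40.6, 36.9 and 23.5 in the LPC lesion. It was 39.8, 28.9 and 25.7 in the L-NIO lesion, 35.1, 16.6 and 23.9 on the LPC contralateral side and 18.3, 24.00 and 20.1 on the L-NIO one. Sham replicate 3, the sham library with the most Col1a1, Col3a1, Dcn and Lum, also had the highest fibroblast sum of all 15. Of the 9 markers Islr read highest in every library, at 7.88 to 26.5 CPM, and it gave 26.5 of the 40.6 CPM in LPC lesion replicate 1. Dpt ran from 0 to 0.167 CPM and was too low to be tested. The part of fibroblast content in the collagen values was not tested.

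Other interstitial collagens gave 0 calls and a median of 0.37, which was 0.12 without sham replicate 3 and 0.60 without sham replicate 2. Col6a3, a chain of the microfibril-forming collagen VI, read 9.39, 13.6 and 5.73 CPM in sham and 11.5, 13.2 and 12.6 in the LPC lesion, inside the sham range (log2 fold change 0.39 ± 0.29, adjusted p = 0.509). It read 12.98, 8.68 and 18.1 CPM in the L-NIO lesion and 7.95, 6.76 and 10.2 contralateral to it, and was lowest on the LPC contralateral side at 6.21, 4.67 and 5.32. The partner chains Col6a1 and Col6a2 had log2 fold changes of 0.47 and 0.37, and Col12a1 of -0.16. Col8a1 varied by library instead: it read 9.67 CPM in sham replicate 2, 10.1 in LPC contralateral replicate 3 and 6.29 in L-NIO contralateral replicate 2, and 5.60 and 4.72 in L-NIO and LPC lesion replicate 3. The other 10 libraries lay between 1.36 and 3.397 CPM. Those 5 libraries also had the highest choroid plexus sums, 541 to 1410 CPM against at most 221 in the others, and the part of plexus tissue in Col8a1 was not tested.

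**Figure D3:**
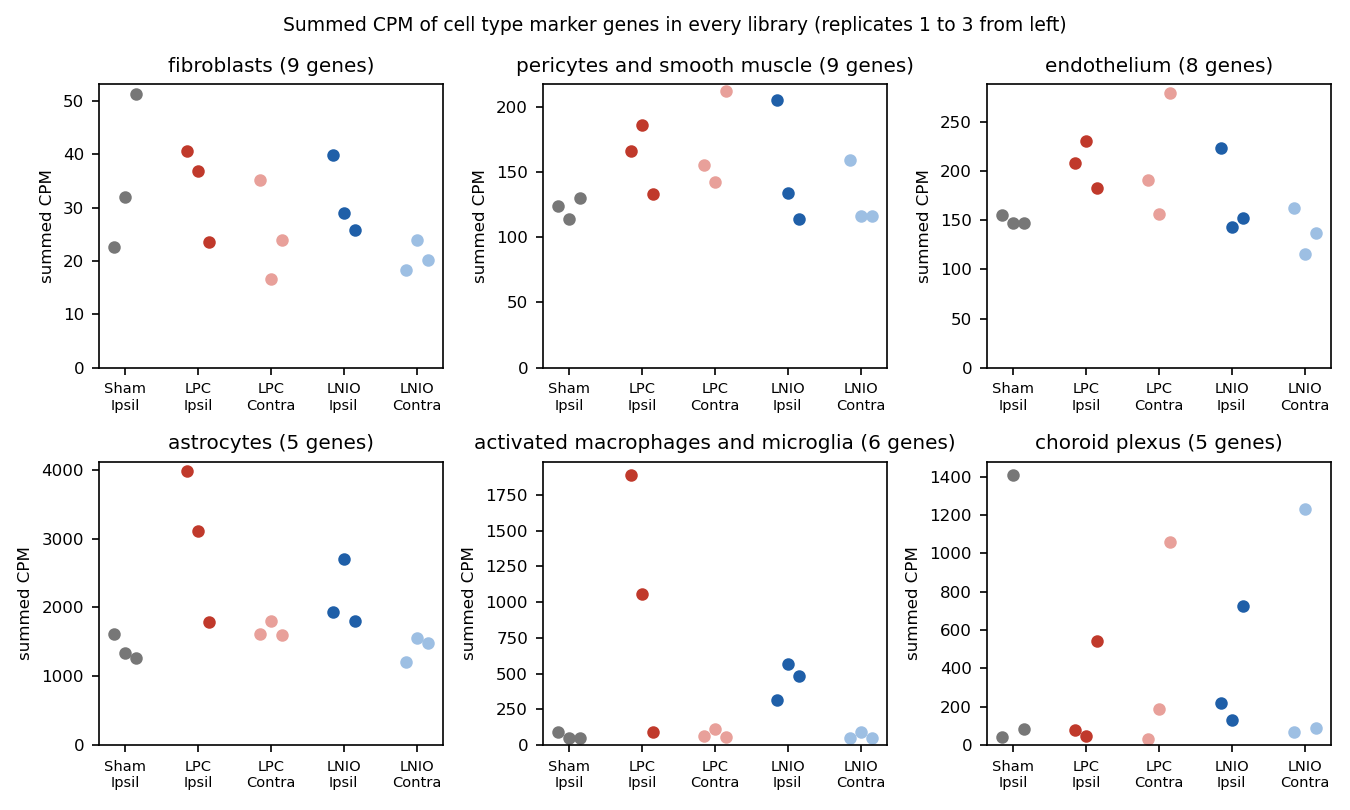
Points give the summed CPM of marker genes of 6 cell types in each library by group, on linear axes from 0. Fibroblast sums overlap between sham and both lesions, activated macrophage and microglia sums are high in LPC lesion replicates 1 and 2 (1890 and 1060) and low in replicate 3 (91.2), and choroid plexus sums are high in 5 libraries spread over all groups.

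Immune marker sums were highest in LPC lesion replicates 1 and 2, where the 7 risers were also higher than in every other library. Summed CPM of 6 markers of activated macrophages and microglia was 91.3, 48.7 and 50.5 in sham and 1890, 1060 and 91.2 in the LPC lesion. It was 313, 565 and 485 in the L-NIO lesion, 65.5, 114 and 56.2 on the LPC contralateral side and 45.9, 89.3 and 47.6 on the L-NIO one. Within the L-NIO lesion this sum was highest in replicate 2, as were the risers other than Lox. Lox read 4.57, 1.78 and 2.38 CPM there, highest where the sum was lowest. LPC lesion replicate 3 was the lowest of the 3 LPC lesion libraries for 7 of the 7 risers, a share that was not counted over all called genes. In the activated macrophage and microglia sum it reached only the level of the highest sham library. The part of these cells in the risers was not tested.

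Since several of these genes rose together, promoter sequence is shown for the 4 risers whose LPC lesion libraries all lay above sham and for which the RefSeq promoter table (build GRCm38.p6) has an entry. Each line gives the 250 bases before the annotated start, on the gene's strand, with capitals marking every match to 1 of 5 motifs on either strand. Positions belong to that table's build and not to GRCm39, which the counts use. Sparc lies at chr11:55420081-55420330 (minus strand), Lamb2 at chr9:108479612-108479861 (plus), Bgn at chrX:73483351-73483600 (plus) and Serpinh1 at chr7:99353240-99353489 (minus).
Sparc: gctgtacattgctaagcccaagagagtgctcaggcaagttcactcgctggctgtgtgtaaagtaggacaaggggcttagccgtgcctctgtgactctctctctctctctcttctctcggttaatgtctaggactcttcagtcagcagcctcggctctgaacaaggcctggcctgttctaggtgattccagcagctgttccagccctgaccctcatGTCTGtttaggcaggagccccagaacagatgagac
Lamb2: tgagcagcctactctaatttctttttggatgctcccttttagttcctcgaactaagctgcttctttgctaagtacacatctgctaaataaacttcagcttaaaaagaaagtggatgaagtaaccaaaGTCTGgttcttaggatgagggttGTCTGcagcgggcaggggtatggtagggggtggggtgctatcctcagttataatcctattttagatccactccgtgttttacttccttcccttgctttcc
Bgn: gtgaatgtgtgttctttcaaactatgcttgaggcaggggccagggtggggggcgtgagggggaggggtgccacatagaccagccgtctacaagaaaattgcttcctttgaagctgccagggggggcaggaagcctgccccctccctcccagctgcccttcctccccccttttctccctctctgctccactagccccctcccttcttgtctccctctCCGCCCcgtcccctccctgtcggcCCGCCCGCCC
Serpinh1: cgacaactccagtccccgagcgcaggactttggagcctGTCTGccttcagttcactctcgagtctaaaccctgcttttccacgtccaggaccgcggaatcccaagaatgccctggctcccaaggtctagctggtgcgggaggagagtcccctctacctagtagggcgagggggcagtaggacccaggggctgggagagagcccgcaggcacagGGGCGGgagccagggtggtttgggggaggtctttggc
The motifs searched were the SMAD element CAGAC, the GC box with the letters GGGCGG, the CCAAT motif, the TATA box written TATAAA and the AP-1 heptamer TGANTCA, none of which contains another. Sparc and Lamb2 held the SMAD letters 1 and 2 times and no other motif. Bgn held 3 GC boxes, of which 2 overlap, and Serpinh1 held 1 SMAD element and 1 GC box. The 4 windows thus shared no motif among all of them. The table matched 28 of the 44 genes with 32 windows. SMAD letters were in 59.4% of those windows and in 42.2% of all 32851 windows of this length, and GC boxes in 59.4% and 32.7%. CCAAT was in 28.1% and 33.8%, TATAAA in 21.9% and 12.4%, and the AP-1 heptamer in 6.25% and 6.75%. Genes without an entry were Col1a1, Col5a2, Col12a1, Fn1, Lox, Loxl1, Loxl2, Loxl3, Plod2, Lum, Dcn, Lama1, Lama4, Lamc1, Nid2 and Thbs1.

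In the L-NIO lesion against the saline site, 0 of 44 genes were called by edgeR, against 0% of all tested genes. DESeq2 called 1, Sparc (adjusted p = 0.0182), where it called 1.21% of all genes higher. This comparison shares the sham libraries with the previous one. The fold changes were positive for 35 of 44 genes with a median of 0.30 (all genes -0.02). An unadjusted p under 0.05 was found for 8 genes, 18.2% of the list, against 8.87% of all genes. In 11 genes the lesion libraries lay wholly above sham (10.1% of all genes did) and in 0 wholly below (7.86%). The 11 were Col15a1, Fn1, Sparc, Lox, Loxl3, Bgn, Lama4, Lamb2, Serpinh1, Emilin1 and Ecm1. The largest differences were 1.85 ± 0.60 (SE, adjusted p = 0.316) for Lox, 1.29 ± 0.36 (SE, adjusted p = 0.272) for Sparc, 1.01 ± 0.58 (SE, adjusted p = 0.682) for Emilin1 and 0.88 ± 0.26 (SE, adjusted p = 0.291) for Bgn. Col15a1, a vessel and nerve basement membrane collagen, was higher in every L-NIO lesion library (13.98, 12.1 and 9.87 CPM) than in sham (7.05, 7.44 and 5.58 CPM), at 0.84 ± 0.30 (SE, adjusted p = 0.387). Lamb1 pointed down at -0.49. By class, the median was 0.70 for cross-linking and processing and stayed between 0.57 and 0.76 under the other settings. The other medians moved more when 1 library was left out. They were 0.34 for fibrillar collagens (0.67 without sham replicate 3), 0.31 for glycoproteins (0.56 without sham replicate 2) and 0.30 for basement membrane (0.13 without L-NIO lesion replicate 1). The median of the other interstitial collagens was 0.25 and ran from 0.06 without sham replicate 1 to 0.45 without sham replicate 2. For proteoglycans it was 0.08 and ran from 0.0053 without sham replicate 1 to 0.31 without sham replicate 3. When LPC lesion replicate 3 was left out, which gave smaller standard errors, 3 genes were called, Sparc, Lox and Bgn (2.26% of all genes higher). The log2 fold change of Sparc was then 1.29 ± 0.19 (SE, adjusted p = 0.00148).

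**Figure D4:**
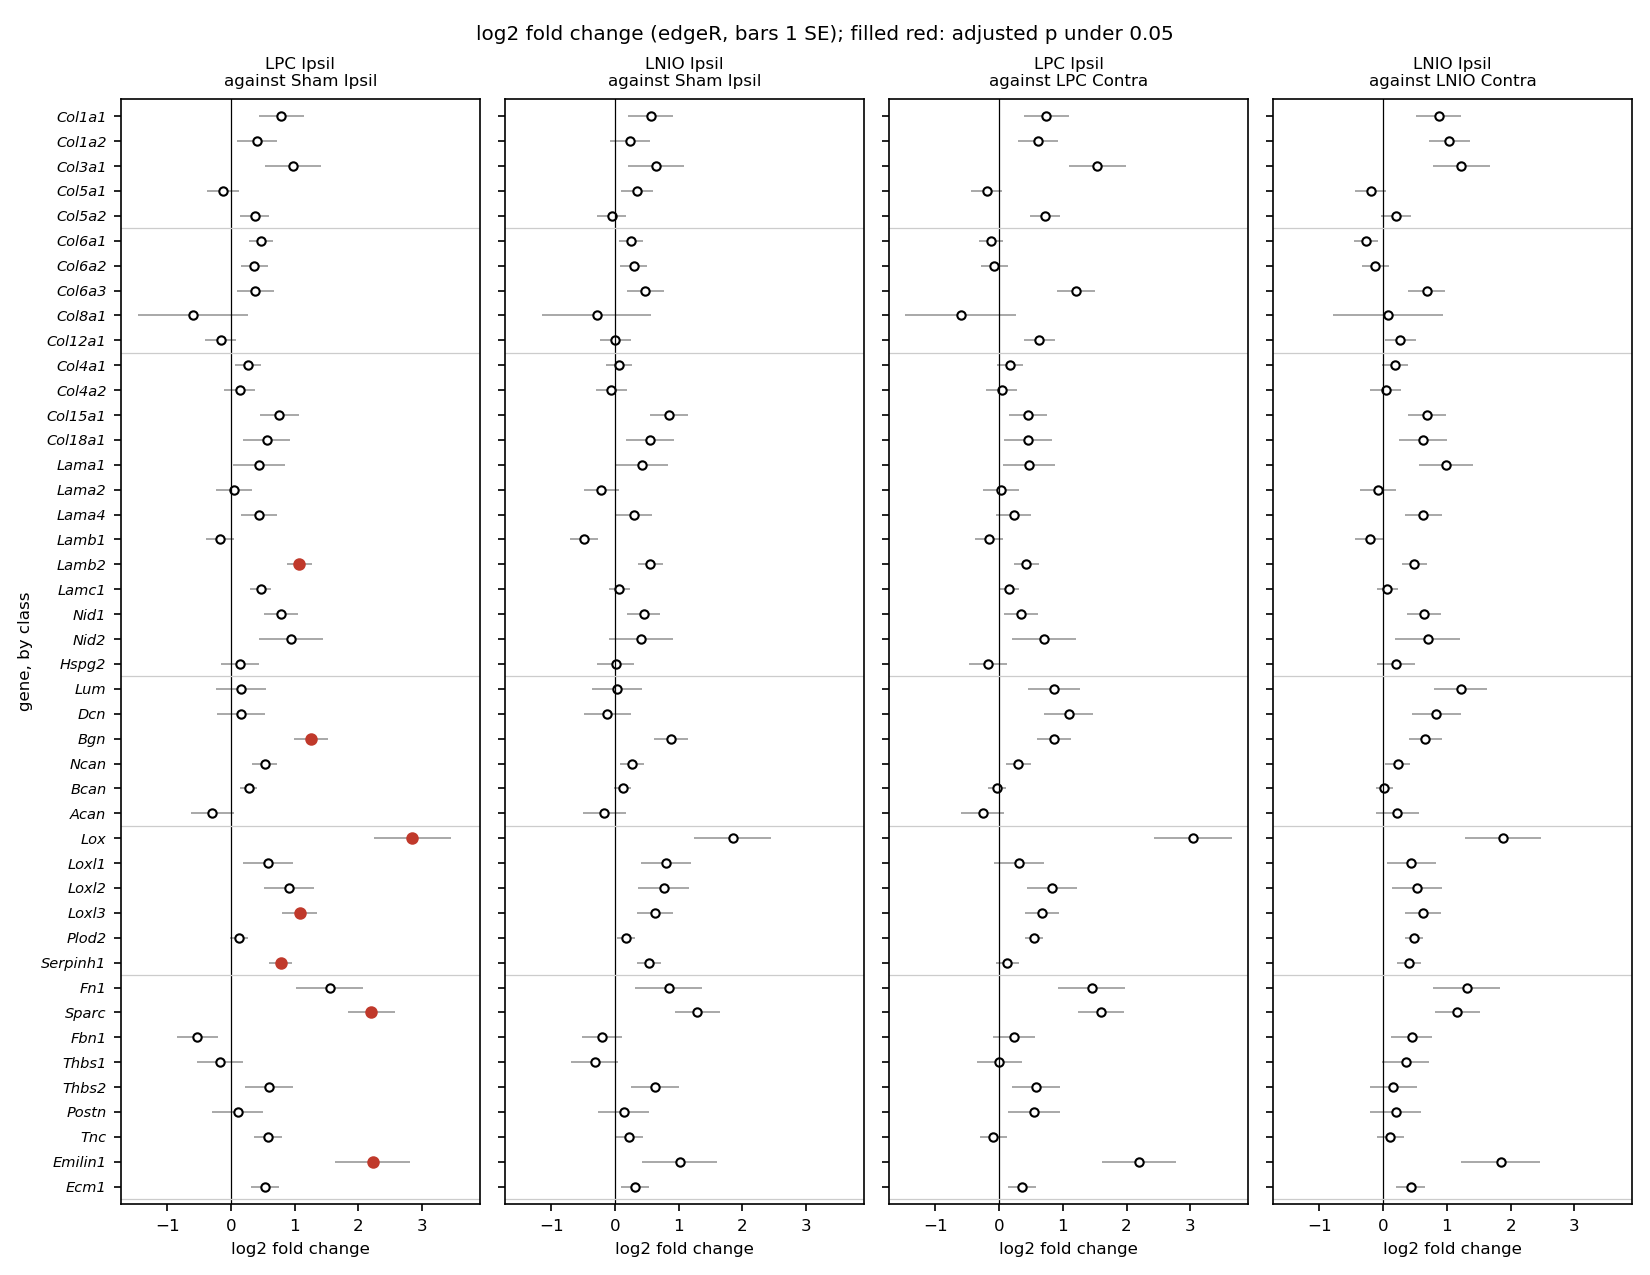
Points give the log2 fold change of each of the 44 genes with bars of 1 SE in 4 comparisons, grouped by class, and filled red points passed the test. Only the comparison of the LPC lesion with sham has filled points (7), while most points of all 4 comparisons lie to the right of 0.

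Set directly against each other, the lesions gave 0 calls among the 44 genes by edgeR (0% of all genes) and 0 by DESeq2 (0.107%). An unadjusted p under 0.05 was found for 4 genes, 9.09% of the list against 8.39% of all genes, so the count is close to the background. The L-NIO lesion was lower than the LPC lesion for 33 of 44 genes, with a median of -0.20 (all genes -0.04). Without LPC lesion replicate 2 the median was -0.06 and 18 of 44 fold changes were positive, and without replicate 3 it was -0.27 with 7 positive. Those with an unadjusted p under 0.05 were Sparc at -0.91 ± 0.36 (SE, adjusted p = 0.56), Lamb2 at -0.52 ± 0.20 (SE, adjusted p = 0.559), Lamc1 at -0.40 ± 0.16 (SE, adjusted p = 0.56) and Emilin1 at -1.21 ± 0.55 (SE, adjusted p = 0.594). In 5 genes all L-NIO lesion libraries lay below the LPC lesion libraries (Col4a1, Col5a2, Lamb1, Lamc1, Ecm1) and in 1 above (Col5a1), where 7.61% and 6.07% of all genes did so. LPC lesion replicate 1 was the lowest of the 15 libraries for Col5a1, at 33.8 CPM against 56.3 to 108 in the rest. Without LPC lesion replicate 3, 3 genes were called lower in the L-NIO lesion (1.38% of all genes lower): Sparc at -1.31 ± 0.20 (SE, adjusted p = 0.0145), Emilin1 at -1.71 ± 0.37 (SE, adjusted p = 0.0363) and Lamb2 at -0.75 ± 0.16 (SE, adjusted p = 0.0363).

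**Figure D5:**
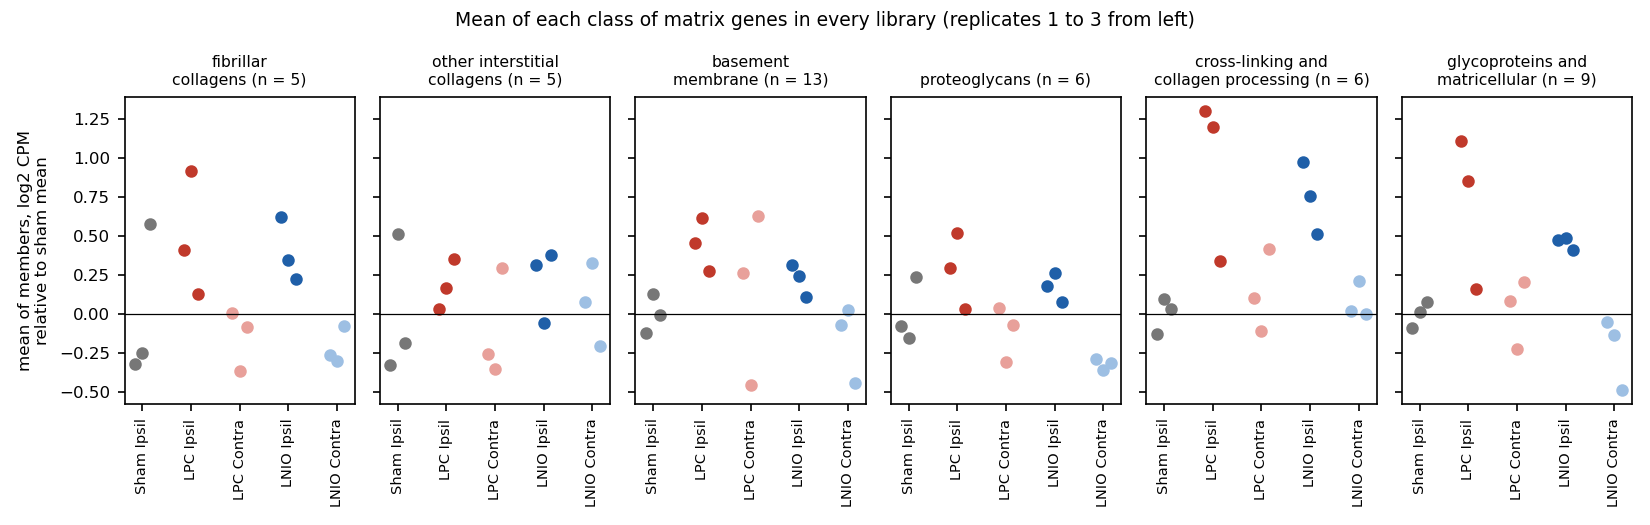
Points give, for each library, the mean over the genes of a class of log2 CPM relative to the sham mean. Cross-linking genes and the glycoproteins and matricellular proteins lie above every sham library in all 3 libraries of both lesions. The fibrillar and other interstitial collagens of both lesions overlap sham. For cross-linking genes, LPC contralateral replicate 3 lies above LPC lesion replicate 3.

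Class means were also taken in each library. For cross-linking and processing genes the mean log2 CPM relative to sham was 1.30, 1.20 and 0.34 in the LPC lesion and 0.97, 0.76 and 0.51 in the L-NIO lesion, with sham libraries at -0.13, 0.09 and 0.03. Contralateral means of this class were 0.10, -0.11 and 0.42 in the LPC model and 0.02, 0.21 and -0.0036 in the L-NIO model. LPC contralateral replicate 3 thus exceeded LPC lesion replicate 3. Glycoproteins and matricellular proteins had 1.11, 0.85 and 0.16 in the LPC lesion and 0.47, 0.485 and 0.41 in the L-NIO lesion. Their sham libraries read -0.09, 0.01 and 0.07. Fibrillar collagens had 0.41, 0.92 and 0.13 in the LPC lesion and 0.62, 0.34 and 0.22 in the L-NIO lesion, against -0.32, -0.25 and 0.57 in sham. Here sham replicate 3 exceeded 2 of the 3 libraries of each lesion. Proteoglycan means were -0.29, -0.36 and -0.32 on the L-NIO contralateral side, below every sham library. These means carry no test.

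Each lesion was next compared with the opposite callosum of the same model. That side was not injected, so the agent and the injection itself cannot be told apart in these comparisons. For LPC, edgeR called 0 of 44 genes (0% of all genes), with 13 genes at an unadjusted p under 0.05 (29.5%, against 12.1% of all genes). DESeq2 called 7: Lox, Sparc, Col6a3, Emilin1, Plod2, Col3a1 and Bgn, where it called 3.68% of all genes higher. Lox led at 3.04 ± 0.61 (SE, adjusted p = 0.0629), followed by Emilin1 at 2.19 ± 0.58 (SE, adjusted p = 0.0794), Sparc at 1.60 ± 0.36 (SE, adjusted p = 0.0629) and Col3a1 at 1.54 ± 0.45 (SE, adjusted p = 0.112). Col6a3 stood at 1.20 ± 0.30 (SE, adjusted p = 0.0639), where its value was low on the contralateral side. In 9 genes the lesion lay wholly above the opposite side (7.06% of all genes): Col3a1, Col5a2, Col6a3, Col12a1, Lox, Loxl2, Plod2, Dcn and Ecm1. Of the other genes called against sham, this comparison gave log2 fold changes of 0.13 for Serpinh1, 0.43 for Lamb2, 0.67 for Loxl3 and 0.86 for Bgn. Without LPC lesion replicate 3, edgeR called 8 genes (5.36% of all genes higher): Sparc, Lox, Emilin1, Bgn, Col3a1, Loxl3, Lamb2 and Fn1.

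For L-NIO the side comparison gave 0 calls by edgeR (0% of all genes) and 0 by DESeq2 (1.07%). Yet 19 of 44 genes had an unadjusted p under 0.05 (43.2%, against 6.08% of all genes), 39 of 44 fold changes were positive, and the median was 0.44 (all genes -0.02). In 18 genes all lesion libraries lay above all contralateral ones, 40.9% of the list against 7.91% of all genes, and in 0 below (5.24%). Fibrillar collagens were among them: Col1a2 stood at 1.04 ± 0.32 (SE, adjusted p = 0.38), Col3a1 at 1.23 ± 0.45 (SE, adjusted p = 0.555) and Col1a1 at 0.87 ± 0.36 (SE, adjusted p = 0.698). Lumican (Lum) followed at 1.22 ± 0.42 (SE, adjusted p = 0.461) and decorin (Dcn) at 0.83 ± 0.38 (SE, adjusted p = 0.807), both small collagen-binding proteoglycans. Col1a2 read 16.3, 11.01 and 9.32 CPM in the lesion and 5.47, 6.29 and 6.03 on the opposite side, with sham at 6.22, 9.20 and 15.7. Lum read 2.51, 2.06 and 2.63 and 0.864, 1.23 and 0.975 CPM, with sham at 1.97, 1.96 and 3.07, so that much of its difference lay in low contralateral values. Cross-linking genes stood at 1.89 (Lox), 0.63 (Loxl3), 0.48 (Plod2) and 0.41 (Serpinh1), with 5 of 6 not overlapping. Emilin1 was at 1.84 ± 0.61 (SE, adjusted p = 0.44) and Sparc at 1.16 ± 0.36 (SE, adjusted p = 0.384). A fit of only these 6 libraries called Sparc, Emilin1 and Col1a2 (adjusted p 0.00145, 0.0317 and 0.0397; 2.11% of all genes higher), and the fit without LPC lesion replicate 3 called Sparc, Lox and Emilin1 (2.21%).

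Fibroblast sums moved the same way here, at 39.8, 28.9 and 25.7 CPM in the lesion against 18.3, 24.00 and 20.1 on the opposite side, and their part in this comparison was not tested. With a term for each pair of sides, 0 of 44 genes were called in either model, against 0.155% of all genes for LPC and 0.0357% for L-NIO.

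Whether the side difference itself differed between the models was tested as an interaction. It gave 0 calls by edgeR (0% of all genes) and by DESeq2, and 0 genes at an unadjusted p under 0.05, where 1.02% of all genes were. The largest interaction was that of Lox, -1.15 ± 0.85 (SE, adjusted p = 1) (L-NIO side difference minus LPC side difference).

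Contralateral tissue was also compared with the saline site, again with the same sham libraries. Only the saline site had been injected, so the injection and the lesion on the other side cannot be told apart here. On the LPC side edgeR called 0 of 44 genes, against 0.00595% of all genes (1 gene), DESeq2 called 0 (0.167% of all genes), and 10 genes (22.7%) had an unadjusted p under 0.05, against 9.67% of all genes. Serpinh1 (0.65 ± 0.19, adjusted p = 0.492), Lamb2 (0.65 ± 0.20, adjusted p = 0.492), Tnc (0.67 ± 0.22, adjusted p = 0.492) and Col6a1 (0.59 ± 0.19, adjusted p = 0.492) lay above sham in all 3 libraries. Col12a1 (-0.79 ± 0.25, adjusted p = 0.492) and Plod2 (-0.42 ± 0.14, adjusted p = 0.492) lay below it in all 3. In all, 9 genes lay wholly above sham (7.06% of all genes) and 3 wholly below (8.07%), and the median was 0.09 (all genes 0.02). It ran from -0.16, with 16 of 44 positive, without LPC contralateral replicate 3 to 0.30 without replicate 2. LPC contralateral replicate 2 was the lowest of its group for 13 of the 13 basement membrane genes, and the class median of 0.21 was 0.47 without it and -0.15 without replicate 3.

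On the L-NIO contralateral side 0 of 44 genes were called by edgeR (0% of all genes) and 0 by DESeq2 (0.0119%), with 5 at an unadjusted p under 0.05 (11.4%, against 2.72%). The median was -0.13, with 28 of 44 negative, and ran from -0.22 without sham replicate 1 to -0.04 without sham replicate 2. Lum (-1.19 ± 0.42, adjusted p = 1), Dcn (-0.95 ± 0.38, adjusted p = 1), Plod2 (-0.30 ± 0.14, adjusted p = 1) and Thbs1 (-0.68 ± 0.37, adjusted p = 1) lay below sham in all 3 libraries. Bgn (0.22), Loxl1 (0.36), Serpinh1 (0.13) and Col5a1 (0.54) lay above it. These were 4 genes each way, against 5.13% of all genes wholly below and 5.01% wholly above.

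Beyond the 44 genes, 143 further matrix genes in 7 lists were looked up, and 139 were tested. In the LPC lesion against sham 13 rose and 0 fell, where 4.19% of all genes were called higher, and in the other comparisons 0 were called by edgeR. Collagen-modifying enzymes gave 5 of 20, among them P4ha3, a prolyl 4-hydroxylase subunit (1.38 ± 0.27, adjusted p = 0.0243), Plod3 (1.04 ± 0.21, adjusted p = 0.0243) and Plod1 (0.84 ± 0.19, adjusted p = 0.0247), both lysyl hydroxylases, and P4hb, the protein disulphide isomerase subunit of prolyl 4-hydroxylase (0.74 ± 0.17, adjusted p = 0.0283). Matrix receptors gave 3 of 22: Cd44, the hyaluronan receptor (2.12 ± 0.40, adjusted p = 0.0243), Itgb5, the integrin beta 5 chain (2.83 ± 0.59, adjusted p = 0.0245), and Mrc2, an endocytic collagen receptor (2.48 ± 0.57, adjusted p = 0.028). Matrix glycoproteins gave 3 of 35, Comp (2.79 ± 0.61, adjusted p = 0.0245), Thbs4 (1.12 ± 0.30, adjusted p = 0.0467) and osteopontin, Spp1 (3.74 ± 0.98, adjusted p = 0.0485), which macrophages and microglia are known to make. The Comp difference lies at a very low level, with 0.1945 ± 0.0131 CPM (SD) in sham and 1.39 ± 0.79 in the lesion. Spp1 varied in the lesion, at 109 ± 94.6 CPM (SD, n = 3) against 8.16 ± 7.28 in sham, and the groups overlapped. They also overlapped for Mrc2, at 26.9 ± 21.9 CPM in the lesion against 4.81 ± 1.71 in sham. Itgb5 was spread widely in the lesion too, at 242 ± 194 CPM against 34.1 ± 1.57 in sham, without overlap. Proteoglycans and hyaluronan genes gave 1 of 22, Cspg4, the NG2 proteoglycan of oligodendrocyte precursors and pericytes (1.11 ± 0.27, adjusted p = 0.0317). Fibrillar and fibril-associated collagens gave 1 of 14, Col11a2 (0.62 ± 0.16, adjusted p = 0.0358). The other collagens (8 tested) and other basement membrane genes (18 tested) gave 0. As for the 44, these calls were lost when any sham library or LPC lesion replicate 1 or 2 was left out, and there were 29 higher and 2 lower without replicate 3.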

How the data were processed

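Per the labels' protocols, RNA was extracted with TRIzol, depleted of ribosomal RNA, poly(A)-purified and sequenced as read pairs. The authors deposited raw read counts by gene symbol for the 15 libraries, and FPKM values of the same genes. The submitters' processing notes name HISAT2 2.2.1, R 4.4.2 and GRCm39. How reads were counted, with which strand setting and gene models, is not given in the sources used here; overlapping or antisense genes are therefore uncertain. Symbols repeat in 74 entries, and 0 columns were left unmatched.

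The test was edgeR's quasi-likelihood test (edgeR 4.0.16, R 4.3.3; robust, TMM scaling, filterByExpr with minimum count 10 and minimum total 15), fitted to the 15 libraries at once with 5 group means and no block. Genes count as called where the Benjamini-Hochberg adjusted p over the 16795 tested genes is under 0.05. CPM are TMM-scaled, and standard errors (SE) derive from the F statistic. Class means use log2 CPM with a prior count of 2. Other settings were DESeq2 1.42.0 size factors, no count filter, DESeq2's own test, only the groups compared, a replicate block, and each library left out in turn. Replicates of a group differed beyond sampling noise (chi-square per degree of freedom 10.1 to 63.7 over genes with at least 20 counts).

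Same-numbered L-NIO lesion and contralateral libraries deviated together over all tested genes (r = 0.60, 0.36 and 0.25). L-NIO libraries of unlike number had r from -0.47 to 0.195. The numbers could thus mark pairs, from the data and not the labels. The main fit did not use pairs, and the fit with a term for each pair of sides did. The LPC pairs did not all do so (r = -0.04, 0.17 and 0.33).

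The 44 genes, their classes, the marker lists and the 143 further matrix genes were chosen with earlier results of these data known. Any of the 44 may be named. Values in every library are given for 12 set genes and for every gene called, and up to 4 called genes with the smallest adjusted p are named from each further list. Plod2, Col15a1, Col1a2, Lum, Col8a1 and Col5a1 are given more values than the rule asks, chosen after their values were seen. Promoter windows came from the RefSeq table of build GRCm38.p6.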

Additional observations from a re-analysis of the deposited data

How the results depend on the processing

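The 7 calls in the LPC lesion against sham (4.19% of all genes higher) became 6 without a count filter (1.68%) and 5 with a replicate block (3.13%). Emilin1 and Loxl3 were the calls lost with the block. The count was 7 with DESeq2 factors (3.99%) and 7 by DESeq2 (6.45%). With only those 6 libraries fitted, 0 were called (0% of all genes, adjusted p 0.121 to 0.163 for the 7 genes). Leaving out 1 library gave 0 to 9 calls in the LPC lesion against sham (0% to 8.01% of all genes higher). It gave 0 to 3 in the L-NIO lesion against sham (0% to 2.26% higher) and 0 to 3 in the L-NIO against the LPC lesion (0% to 1.38% lower). The LPC side comparison gave 0 to 8 (0% to 5.36% higher) and the L-NIO side comparison 0 to 3 (0% to 2.21% higher). In the last 4 of these comparisons the highest counts came without LPC lesion replicate 3. With fits of only the groups compared, the L-NIO lesion against sham gave 1 call (2.01% of all genes higher) and the L-NIO side comparison 3 (2.11%). DESeq2's test gave 1 in the L-NIO lesion against sham (1.21% of all genes higher) and 7 in the LPC side comparison (3.68%). The causes were not tested. The comparisons of the contralateral sides with sham and the interaction stayed at 0 under every setting run. No called gene changed direction, and with 1 library left out the log2 fold changes of the 7 stayed within 1.63 to 2.60 (Sparc), 2.34 to 3.29 (Lox), 1.48 to 2.72 (Emilin1), 1.03 to 1.52 (Bgn), 0.90 to 1.30 (Lamb2), 0.73 to 1.36 (Loxl3) and 0.55 to 0.99 (Serpinh1). Of the 37 genes not called against sham in the LPC lesion, 29 kept their sign in 20 settings and 8 did not. Where a fit left 2 libraries in a group, they were taken to vary like the other groups. The LPC replicate numbers did not pair by the check used, and for them the block says only how the count moves. Depth limits Lox most, at 7 counts in sham replicate 1.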
